A study of Mus musculus with 22 samples.

Results

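The miR-148 and miR-152 family comprised 3 mature miRNAs, miR-148a-3p, miR-148b-3p and miR-152-3p, taken by name from the 1966 mature mouse miRNA names of a small RNA count table. The table held 22 libraries. All were made from round spermatids (RS), postmeiotic haploid cells of the testis, of mice 75 to 85 days old. GRTH (DDX25) is a testis RNA helicase; GRTH-KO mice lack it, and GRTH-KI mice carry a human GRTH gene with a missense change and lack only the phosphorylated protein. The KO batch held 5 WT and 5 KO libraries and the KI batch 6 WT and 6 KI libraries, with wild type mice as controls and no other treatment named in either batch. Each mutant was compared with the WT of its own batch, to ask whether loss of GRTH or of its phosphorylated form went with other family levels. GRTH itself is not measured by these libraries. In both mutants spermatids arrest before they elongate, and the labels do not say whether libraries came from separate animals, so the p-values measure only the spread between libraries.

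MiRNAs guide Argonaute proteins to messenger RNAs chiefly through the seed, the bases near the 5′ end that pair with a matching site in the 3′ untranslated region (3′UTR). MiRNAs with the same seed can share targets. The miR-148 and miR-152 family is known for repressing DNA methyltransferase transcripts, Dnmt1 above all, and miR-148a is also known for its abundance in liver and in lymphocytes.

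The mature sequences are shown because their likeness bears on how reads of the members can be told apart. RefSeq (GRCm38.p6) held all 3, and bases 2 to 8, the seed, are in capitals.
mmu-miR-148a-3p: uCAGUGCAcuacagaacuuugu
mmu-miR-148b-3p: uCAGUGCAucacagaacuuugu
mmu-miR-152-3p: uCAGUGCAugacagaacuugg
No other name among the 1679 mature mouse miRNAs of that table carried the same seed. Counted from the 5′ end, miR-148a-3p differed from miR-148b-3p by C9U and U10C, and these lie just after the seed. MiR-152-3p differed from miR-148b-3p by C10G and U20G, and it ends 1 base earlier. The nearest mature miRNA outside the family had at least 8 mismatches to any member.

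The hairpins come from 3 chromosomes. Mir148a (chr6:51269812-51269910, minus strand) lies in no annotated host, with Nfe2l3 the nearest protein-coding gene at 162760 bases. Mir148b (chr15:103285125-103285221, plus strand) lies in an intron of Copz1, and Mir152 (chr11:96850393-96850465, plus strand) in an intron of Copz2, both in the sense of the host. Copz1 and Copz2 encode paralogous coatomer subunits of COPI vesicles.

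Library totals ran from 559957 to 3239357 counts, 559957 to 1081333 in the KO batch and 2067322 to 3239357 in the KI batch. Levels are given in CPM (counts per 1000000 of the library total, scaled over all libraries by the trimmed mean of M-values, TMM). The miR-34b-5p, miR-34c-5p and miR-449a-5p markers of late spermatocytes and spermatids summed to 159662 to 226744 CPM in the KO batch. In the KI batch they summed to 330631 to 411481 CPM. No pair of libraries within a group agreed within sampling noise. Markers of other cells were present too: those of blood and immune cells summed to 2940 to 6094 CPM and those of vascular and stromal cells to 637 to 3799 CPM. The 3 muscle markers summed to 8.10 to 758 CPM, all of it miR-1a-3p and miR-133a-3p, while miR-206-3p was at 0 in all 22 libraries.

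MiR-148a-3p and miR-148b-3p made up nearly all of the family. Summed over all libraries miR-148a-3p had 80101 counts, miR-148b-3p 59128 and miR-152-3p 207. MiR-148a-3p ranked between 39 and 64 of all names by count in each library, miR-148b-3p between 56 and 84, and miR-152-3p between 301 and 601. MiR-148a-3p and miR-148b-3p are both 22 bases long. How evenly the library preparation recovered each sequence was not measured, so a ratio of their counts is not a measured ratio of molecules.

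In KO RS, miR-148b-3p fell and miR-148a-3p rose, both modestly. MiR-148b-3p stood at 1439, 1492, 1551, 1370 and 1554 CPM in the WT libraries of the KO batch (mean 1481 ± 78.1, SD, n = 5). In KO it stood at 1292, 1037, 995, 1096 and 1357 CPM (mean 1156 ± 160, SD, n = 5). All 5 KO libraries lay below the lowest WT library, KO replicate 5 only just. The log2 fold change was -0.33 (SE 0.0889; edgeR quasi-likelihood test, Benjamini-Hochberg adjusted p = 0.0136). In this comparison 41.9% of the 334 miRNAs tested passed an adjusted p of 0.1, 20.7% of them lower and 21.3% higher, and 11.7% were lower without overlap, so a member that passed was not unusual.

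For miR-148a-3p the KO and WT libraries overlapped. The WT libraries held 2164, 2203, 2359, 2029 and 2400 CPM (mean 2231 ± 151, SD, n = 5). The KO libraries held 2905, 2597, 2258, 2546 and 2222 CPM (mean 2506 ± 279, SD, n = 5). KO replicates 1, 2 and 4 were above every WT library, while replicates 3 and 5 were inside the WT range. Its rise of 0.19 on the log2 scale (SE 0.0796, edgeR adjusted p = 0.0843) was close to the threshold. It passed no longer without WT replicate 1, 2 or 4 or without KO replicate 1, 2 or 4 (adjusted p between 0.132 and 0.190), nor with DESeq2 (adjusted p = 0.1001) or with no filter on low counts (adjusted p = 0.470).

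In KI RS both members moved in the same directions. MiR-148b-3p ranged over the 6 WT libraries of the KI batch from 1679 to 2017 CPM with a median of 1913 (mean 1875 ± 133, SD, n = 6). Over the 6 KI libraries it ranged from 1467 to 1623 CPM with a median of 1582 (mean 1560 ± 71.4, SD, n = 6). Every KI library lay below every WT library, and the log2 fold change was -0.24 (SE 0.0541, edgeR adjusted p = 0.00431). Here 38% of the 387 miRNAs tested passed, 19.9% lower and 18.1% higher, and 8.79% were lower without overlap.

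MiR-148a-3p ranged from 1746 to 2042 CPM in WT with a median of 1902 (mean 1899 ± 117, SD, n = 6). In KI it ranged from 1843 to 2969 CPM with a median of 2290 (mean 2309 ± 373, SD, n = 6). Only KI replicate 2 was inside the WT range, and KI replicate 3 was the highest of the 12. The log2 fold change was 0.30 (SE 0.0914, edgeR adjusted p = 0.0222), and without KI replicate 3 it was 0.22 (adjusted p = 0.0351).

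**Figure D1:**
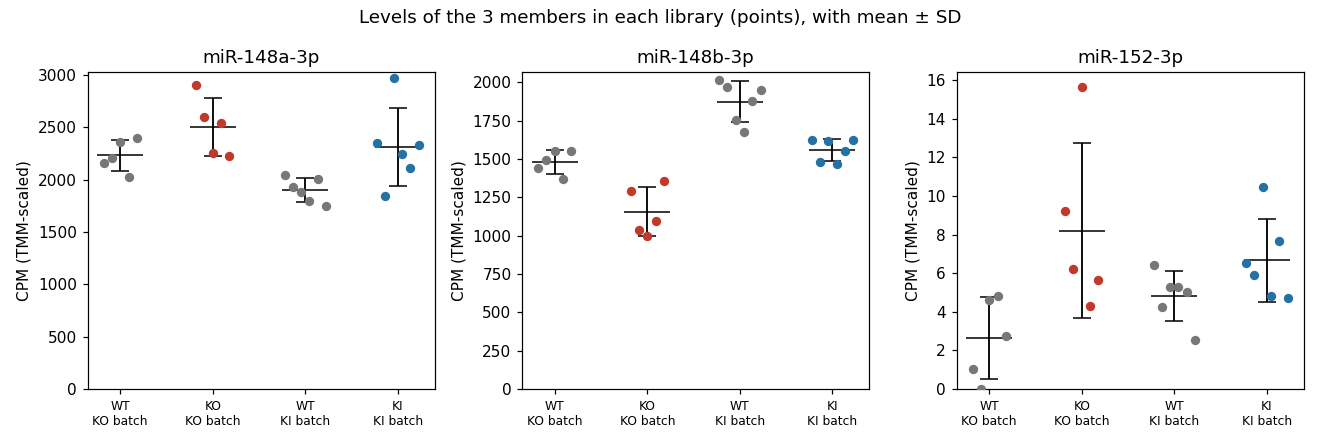
TMM-scaled CPM (linear axes from 0) of the 3 members in each library by genotype and batch, with mean ± SD as bars. MiR-148b-3p lies lower in every KO and KI library than in the WT libraries of the same batch, while miR-148a-3p and miR-152-3p overlap between mutant and WT.

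The ratio of miR-148a-3p to miR-148b-3p within a library does not depend on how libraries are scaled to each other. It is given as a description, with no test. In WT of the KO batch the ratio of counts was 1.504, 1.48, 1.52, 1.48 and 1.54 (mean 1.51 ± 0.0285, SD, n = 5). In KO it was 2.25, 2.50, 2.27, 2.32 and 1.64 (mean 2.20 ± 0.328, SD, n = 5). All 5 KO libraries were above all WT libraries of the batch, and KO replicate 5 was the one nearest to WT. Without it the KO mean was 2.34 and miR-148b-3p differed by -0.40 on the log2 scale (edgeR adjusted p = 0.00663).

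In the KI batch the WT ratio ranged from 0.895 to 1.07 with a median of 1.04 (mean 1.02 ± 0.0704, SD, n = 6), with miR-148a-3p ahead in 4 of 6 libraries. The KI ratio ranged from 1.24 to 1.84 with a median of 1.44 (mean 1.48 ± 0.202, SD, n = 6). Again every KI library was above every WT library, and miR-148a-3p was ahead in all of them. The mean log2 ratio was 0.53 higher in KO than in its WT and 0.53 higher in KI than in its WT. Over the 53956 pairs formed by miRNAs tested in both batches, the ratio did not overlap between groups for 16.4% in KO and 13.6% in KI, and for 5.55% in both with the same direction.

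**Figure D2:**
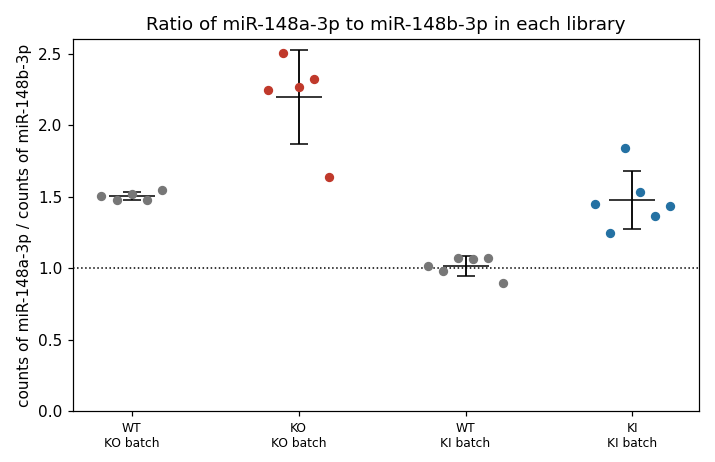
Counts of miR-148a-3p divided by counts of miR-148b-3p in each library (linear axis from 0, mean ± SD as bars, dotted line at equal counts). Both mutants lie above their own WT, and WT of the KI batch lies near equal counts whereas WT of the KO batch lies near 1.51.

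The summed level of the family differed little between mutant and WT, since its members moved in opposite directions. The 3 members together held 3715 ± 228 CPM in WT and 3669 ± 338 CPM in KO (SD, n = 5 each). In the KI batch they held 3779 ± 213 CPM in WT and 3876 ± 423 CPM in KI (SD, n = 6 each). The miR-148a-3p share of the family was 60.03% ± 0.448 in WT and 68.3% ± 3.62 in KO (SD, n = 5 each), and 50.3% ± 1.77 in WT and 59.3% ± 3.12 in KI (SD, n = 6 each). As CPM of library totals, without TMM scaling, the family sum was 4119 ± 207 in WT against 4467 ± 256 in KO, and 3207 ± 126 in WT against 3538 ± 341 in KI, so whether the sum is level depends on the scaling.

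MiR-152-3p was rare, and its depth sets what can be said. It had 1, 0, 5, 6 and 3 counts in the WT libraries of the KO batch and 8, 7, 14, 3 and 4 in the KO libraries. These were too few to pass the filter on low counts. In TMM-scaled CPM, 4 of 5 KO libraries were above the highest WT library. The pooled rate, 36 counts against 15, was 3.34 times as high in KO (exact 95% interval 1.79 to 6.57, counting error only). Pooled rates, here and below, are counts over library totals without TMM scaling. With no filter on low counts, 937 miRNAs were tested in KO, of which 62 passed higher and 68 lower. MiR-152-3p then rose in KO by 1.54 on the log2 scale (edgeR adjusted p = 0.0355, SE 0.512). That call was lost without WT replicate 2 (adjusted p = 0.105) and without KO replicate 3 (log2 fold change 1.17, adjusted p = 0.235).

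In the KI batch miR-152-3p passed the filter. It had 12, 7, 12, 12, 14 and 6 counts in WT (mean 4.8 ± 1.3 CPM, SD, n = 6) and 18, 13, 26, 12, 15 and 9 counts in KI (mean 6.7 ± 2.2 CPM, SD, n = 6). The groups overlapped, with 3 of 6 KI libraries above the highest WT library in TMM-scaled CPM. The log2 fold change was 0.50 (SE 0.262, 95% interval -0.06 to 1.06, edgeR adjusted p = 0.165) and did not pass.

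The 5p products, cut from the other arm of the same hairpins and usually degraded, were scarce for miR-148a and miR-148b. Over all libraries they took 0.177% of the reads of both arms for miR-148a, 0.465% for miR-148b and 26.1% for miR-152. MiR-148a-5p had 3, 2, 0, 4 and 2 counts in WT and 3, 7, 6, 4 and 1 in KO. Its pooled rate was 2.66 times as high in KO (exact 95% interval 1.23 to 6.11, counting error only), with 4 of 5 KO libraries above the highest WT library. With no filter on low counts the log2 fold change was 1.18 (SE 0.598, 95% interval -0.0080 to 2.38, edgeR adjusted p = 0.245) and did not pass.

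In the KI batch miR-148a-5p ranged from 3 to 9 counts in WT and from 6 to 25 in KI. The pooled rate was 2.29 times as high in KI (exact 95% interval 1.51 to 3.54, counting error only), and with no filter on low counts the log2 fold change was 1.09 (SE 0.361, edgeR adjusted p = 0.0504). The share of miR-148a reads on the 5p arm was 0.136% (Wilson 95% interval 0.0971% to 0.190%) in WT and 0.236% (0.188% to 0.295%) in KI. These intervals pool the libraries and cover counting error only. KI replicates 1 and 3 held 18 and 25 of the 76 KI counts of miR-148a-5p. MiR-152-5p had 19 counts in WT and 46 in KI, a rate 2.48 times as high (exact 95% interval 1.42 to 4.48, counting error only). Its log2 fold change with no filter was 1.18 (SE 0.415, edgeR adjusted p = 0.0689). With no filter 1060 miRNAs were tested in KI, of which 63 passed higher and 60 lower. The no-filter fits of these 5p products were not repeated without single libraries.

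For miR-148b-5p no difference was detectable at this depth. Its pooled rate in KO was 0.985 times that of WT (exact 95% interval 0.591 to 1.62, counting error only) and in KI 0.910 times (0.685 to 1.21). With TMM scaling and no filter on low counts its log2 fold change in KO was -0.19 (SE 0.402, edgeR adjusted p = 0.788). In KI the log2 fold change was -0.23 (SE 0.169, edgeR adjusted p = 0.404), with an interval from -0.59 to 0.13. Of miR-152-5p in the KO batch, 1 count in all of WT stood against 7 in KO, a ratio of 9.75 with a counting interval from 1.253 to 440, and with no filter it did not pass (edgeR adjusted p = 0.132).

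**Figure D3:**
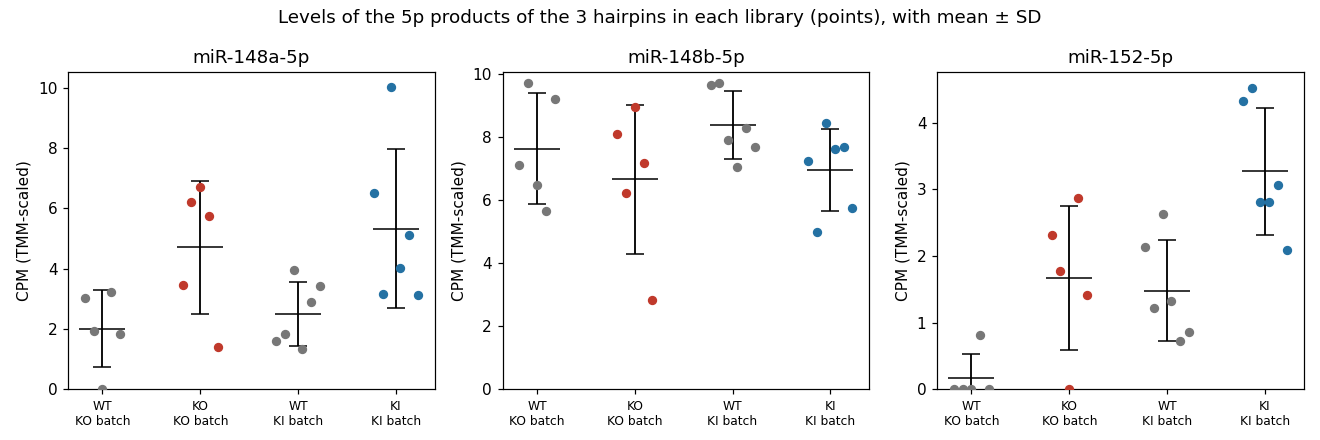
TMM-scaled CPM (linear axes from 0) of the 5p product of each hairpin in each library, with mean ± SD as bars. MiR-148a-5p and miR-152-5p reach higher in KO and KI than in WT but overlap with it, and miR-148b-5p overlaps between mutant and WT, with its lowest values in KO (2.83 CPM) and KI (4.98 CPM).

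The WT libraries themselves differed between batches. MiR-148a-3p was lower in WT of the KI batch than in WT of the KO batch (log2 fold change -0.29, SE 0.0778, edgeR adjusted p = 0.00522), and it no longer passed with no filter on low counts (-0.19, adjusted p = 0.131). MiR-148b-3p was higher there (0.28, SE 0.0751, edgeR adjusted p = 0.00522) without overlap of the libraries, although with scaling by library total alone its sign turned (-0.05, adjusted p = 0.447). Of the 383 miRNAs tested, 56.7% passed, 26.9% higher and 29.8% lower, and 19.3% were higher without overlap. The log2 ratio of the pair differed by -0.57 between the WT groups, as large a shift as that of either mutant, so KO and KI levels were not compared directly.

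The KO effect and the KI effect of a member were not shown to differ. For miR-148a-3p the KO effect minus the KI effect was -0.11 on the log2 scale (95% interval -0.39 to 0.16, edgeR adjusted p = 0.691), and for miR-148b-3p -0.09 (-0.32 to 0.14, adjusted p = 0.691). For miR-152-3p it was 1.10 (-0.12 to 2.32, adjusted p = 0.373), an interval that leaves room for a large difference. Over all 421 miRNAs tested with edgeR 0 passed (0%), with 67 at an unadjusted p under 0.05, and DESeq2 called 21; without KI replicate 2 edgeR called 26, no member among them.

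Each member had its own companions among the other miRNAs. Likeness was taken as Spearman's rho of log2(CPM + 1) over the 22 libraries after subtracting each batch's mean, among 303 miRNAs with at least 10 CPM on average in both batches, and the libraries share genotype groups, depth and cell make-up, so it is a description. MiR-148a-3p was most like let-7i-5p (rho 0.822), miR-142a-3p (0.776) and miR-142a-5p (0.748), the last 2 being products of a hairpin known from blood cells. MiR-148b-3p was most like miR-128-3p (0.893), miR-34c-5p (0.889) and miR-141-3p (0.870). MiR-34c-5p is known for its high level in spermatocytes and spermatids.

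MiR-152-3p was most like miR-143-3p (0.797), known from smooth muscle and stroma, and miR-199a-3p and miR-199b-3p (0.791 each). The last pair is a near-identical copy in these counts and cannot be told apart. Between the members rho was -0.331 for miR-148a-3p with miR-148b-3p, 0.390 for miR-148a-3p with miR-152-3p and -0.516 for miR-148b-3p with miR-152-3p.

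Of these 9 companions, 5 were on lists of cell type markers: miR-142a-3p, miR-142a-5p, miR-34c-5p, miR-143-3p and miR-199a-3p. MiR-142a-3p and miR-142a-5p passed in KI (0.52 and 0.44 on the log2 scale, edgeR adjusted p = 0.00175 and 0.00480) but not in KO (0.11 and 0.12, adjusted p = 0.391 and 0.427). Of the 7 blood and immune miRNAs, 5 were tested; 2 rose in KO and 4 in KI, and their summed level was 4337 to 6094 CPM in KO against 4046 to 5103 CPM in WT and 3642 to 5902 CPM in KI against 2940 to 3959 CPM in WT. Of the 6 vascular and stromal miRNAs, 4 were tested; 3 rose in KO and 3 in KI, with sums of 1582 to 3221 CPM in KO against 637 to 1710 CPM and 1769 to 3799 CPM in KI against 1158 to 1931 CPM. Over all miRNAs tested, 21.3% passed higher in KO and 18.1% in KI. No tested miRNA of either list passed lower. MiR-451a (-0.25 in KO and 0.11 in KI) and miR-126a-3p (0.38 in KO and -0.04 in KI) passed in neither mutant. The part of the cells marked by these lists in the miR-148a-3p, miR-152-3p and 5p differences was not tested.

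Of the 3 spermatid markers, 2 passed lower in KO and 1 in KI, beside 20.7% and 19.9% of all miRNAs tested. MiR-449a-5p passed in neither (-0.0047 in KO and 0.037 in KI, edgeR adjusted p = 0.955 and 0.569). The sum of the 3 overlapped with WT in both batches. It was 159662 to 215133 CPM in KO against 185957 to 226744 CPM, and 330631 to 378661 CPM in KI against 357630 to 411481 CPM. MiR-34c-5p fell by 0.21 on the log2 scale in KO (edgeR adjusted p = 0.0809) and by 0.11 in KI (adjusted p = 0.0271). The spermatid markers' part in the miR-148b-3p difference was not tested either, and in bulk libraries fewer cells of a type and less RNA per cell cannot be told apart. Of the 3 muscle miRNAs, miR-1a-3p rose in KO and neither of the 2 tested passed in KI. The liver miRNA miR-122-5p was too low to test, at 2.83 CPM or less in every library.

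A listed set of 16 related miRNAs gave no common direction. It held the 3 5p products, the 4 miRNAs miR-130a-3p, miR-130b-3p, miR-301a-3p and miR-301b-3p, the first 3 with a seed shifted by 1 base from that of the family and the last listed with them without a check of its sequence, and 9 miRNAs known in other tissues to act on Dnmt transcripts. In KO 13 were tested, 3 rose and 1 fell, with a median log2 fold change of 0.06 beside 0.01 over all miRNAs tested. Without WT replicate 3 or 4, or without KO replicate 2, 3 or 4, only 2 of them passed in KO. In KI 14 were tested, 4 rose and 3 fell, with a median of -0.03 beside 0.00 over all. The shares called, 4 of 13 and 7 of 14, stand beside 41.9% and 38% over all miRNAs.

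The shifted seed is shown on miR-130a-3p (chr2:84741116-84741137, minus strand), where the capitals are bases 2 to 7 and equal bases 3 to 8 of the family.
mmu-miR-130a-3p: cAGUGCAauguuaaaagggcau
Among the mature names from RefSeq, 7 had this arrangement. Of these, miR-130c, miR-6341, miR-6389 and miR-721 had 0 counts summed over all libraries. MiR-130a-3p itself did not pass in KO (log2 fold change -0.05, 95% interval -0.34 to 0.23) or in KI (-0.03, interval -0.19 to 0.14). MiR-130b-3p rose in KI (0.37, SE 0.0924, edgeR adjusted p = 0.00829), whereas miR-301a-3p (-0.27, adjusted p = 0.0221) and miR-301b-3p (-0.52, adjusted p = 0.00254) fell in KI. The miR-301a-3p call was lost with scaling by library total (adjusted p = 0.112). None of these 4 passed in KO.

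Among the miRNAs known to act on Dnmt3a and Dnmt3b, the de novo methyltransferases, the results were mixed. MiR-29a-3p rose in KI (0.21, edgeR adjusted p = 0.00724). MiR-29c-3p passed in KO (0.44, adjusted p = 0.0619), but not with no filter on low counts (adjusted p = 0.132) or without WT replicate 3 or 4 or KO replicate 2, 3 or 4 (adjusted p up to 0.154). MiR-29b-3p passed lower in KO with the main settings alone (-0.17, adjusted p = 0.0843): each of the 6 other settings lost the call (adjusted p from 0.109 to 0.467), as did leaving out WT replicate 1, 3 or 4 or KO replicate 2, 3 or 4. MiR-143-3p, which is also on the vascular and stromal list, rose in KO (1.02, SE 0.224, adjusted p = 0.00709) and in KI (0.58, SE 0.196, adjusted p = 0.0369). MiR-101a-3p rose in KO (0.84, adjusted p = 0.0158) and passed in KI (0.50, adjusted p = 0.0737), though not without WT replicate 2 or 6 or KI replicate 3 or 4 (adjusted p up to 0.168). MiR-101b-3p did not pass in either.

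Among those known to act on Dnmt1, the maintenance methyltransferase, miR-342-3p fell in KI (-0.49, SE 0.0829, edgeR adjusted p = 0.000744) and did not pass in KO (-0.05, interval -0.30 to 0.21). MiR-185-5p and miR-126a-3p did not pass in either mutant. Of the 15 miRNAs of the list tested for a difference between the KO and KI effects, 0 passed with edgeR and 1 with DESeq2, while 1 had an unadjusted p under 0.05.

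**Figure D4:**
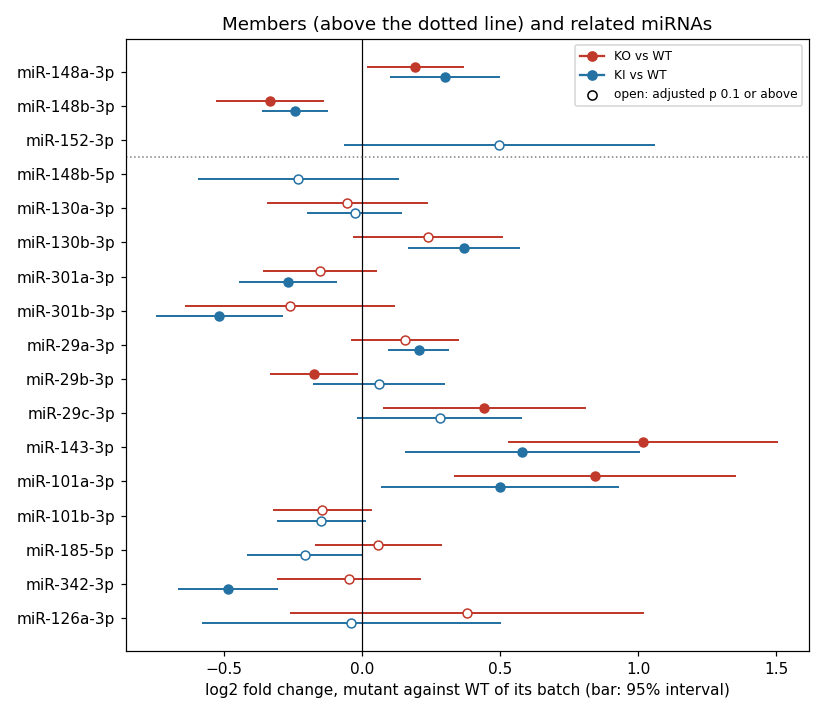
Log2 fold change with its 95% interval for the members (above the dotted line) and the related miRNAs tested, KO in red and KI in blue, each against the WT of its batch. Filled points passed an adjusted p of 0.1. MiR-148a-3p lies right of 0 and miR-148b-3p left of 0 in both mutants, and the related miRNAs lie on both sides.

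Matches to the family seed were looked for in the annotated 3′UTRs of 9 genes that write, read or remove DNA methylation (GENCODE annotation, GRCm38). The motifs were TGCACTG and GCACTGA, read on the transcript strand only, which together form the longest site TGCACTGA. Dnmt1 (chr9:20907483-20907506, minus strand) and Uhrf1 (chr17:56323107-56323130, plus strand), which brings DNMT1 to hemimethylated DNA, each held this longest site, in capitals here with the bases on each side.
Dnmt1: gccccacgTGCACTGAtgttttta
Uhrf1: tcagagagTGCACTGActgggtgt
The Dnmt1 match starts at base 23 of a 312-base 3′UTR and the Uhrf1 match at base 613 of 984. Among all 21013 3′UTRs, 18.95% held one of the shorter motifs and 3.59% the longest. Among 3′UTRs of like length (the shorter at least 0.8 times as long as the longer) the share with one of the shorter motifs was 4.81% for Dnmt1 and 17.2% for Uhrf1. The share with the longest site was not computed at like length. The other 7 genes (Dnmt3a, Dnmt3b, Dnmt3l, Tet1, Tet2, Tet3 and Mbd2) held none of these motifs in the 3′UTR of the transcript used. Coding sequences were not searched. A match is a sequence description, and transcript levels of these genes were not analysed here.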

How the data were processed

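The deposited counts were used as the authors made them: QIAseq adapters trimmed with cutadapt 3.4, reads aligned to GRCm38 (mm10) with Bowtie2 2.4.2 in local mode with up to 100 alignments a read, and counted by strand over miRBase mature names with featureCounts (Subread 2.0.1). Reads, not molecular identifiers, were counted. Intervals and floors cover counting error only, with each read taken as independent, so copies made in amplification are not allowed for. How multi-mapped reads were counted was not determined. MiR-148a-3p and miR-148b-3p differ at bases 9 and 10 of 22. A read of the shortest length the study kept covers both bases, wherever it lies within the 22. Whether mismatched or clipped local alignments moved reads between the 2 members was not examined.

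From the counts, edgeR 4.0.16 in R 4.3.3 fitted each contrast on the whole table (TMM scaling, filterByExpr, quasi-likelihood F-test) with Benjamini-Hochberg adjustment and a threshold of 0.1, as in the study's methods, which used each batch on its own with DESeq2. Alternatives were DESeq2 1.42.0, other scalings, no filter, a replicate block, all 4 groups in one fit and leaving out each library. Library totals of 559957 to 3239357 put the floor of 3 counts at 0.926 to 5.36 CPM. Groups came from the labels. The members and lists were chosen with earlier results of these data known. Named miRNAs were the 3 members, the tested miRNAs of the related list, and the 3 most like each member. On simulated counts with known changes of 1 on the log2 scale the fits were tested first. Changes as small as those of miR-148a-3p and miR-148b-3p were not simulated, so that check does not cover them. Deviations of same-numbered mutant and WT libraries correlated from -0.112 to 0.177 in KO and from -0.109 to 0.519 in KI. The labels do not say what the replicate numbers mark. They were not taken as pairs in the main fits, and the replicate block was run as an alternative.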

Additional observations from a re-analysis of the deposited data

Results flagged for a closer look

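In KO replicate 5 the log2 ratio of miR-148a-3p to miR-148b-3p was 0.71, against 1.17 in the nearest and 1.32 in the farthest of the other KO libraries. Its gap to the nearest library was 0.746 of the range of the 5 KO libraries, past Dixon's 95% critical value for 5 samples. In all, 16 combinations of a group and a measure were screened, of which chance alone would pass about 0.8, and 1 passed. The library still lay above every WT library of its batch.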

How the results depend on the processing

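The rise of miR-148a-3p and the fall of miR-148b-3p in KI, and the fall of miR-148b-3p in KO, kept direction and call under every alternative run, leave-one-out included (0.22 to 0.36, -0.25 to -0.20 and -0.40 to -0.30 on the log2 scale without 1 library). The rise of miR-148a-3p in KO passed under TMM, size factors and library total, but not with DESeq2 (0.19, adjusted p = 0.1001), no filter (0.14), the replicate block (0.19, adjusted p = 0.168) or all 4 groups in one fit (0.17), and without 1 library it ran from 0.14 to 0.23. Between WT groups miR-148a-3p was -0.19 with no filter. The causes were not tested.

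Scaling by library total alone shifted the median of all miRNAs to 0.13 in KO, 0.09 in KI and -0.34 between WT groups, and the calls to 101 higher and 44 lower in KO (71 and 69 with TMM), 96 and 53 in KI (70 and 77), and 47 and 193 between WT groups (103 and 114). It turned the sign of miR-148b-3p (-0.048), miR-148b-5p (-0.25), miR-130b-3p (-0.0048), miR-301b-3p (-0.27) and miR-126a-3p (-0.30) between WT groups, of miR-130a-3p (0.054) and miR-342-3p (0.067) in KO, of miR-130a-3p (0.060) and miR-126a-3p (0.059) in KI, and of miR-101b-3p (0.030) in KO minus KI. Mean CPM by library total was 2473, 3055 and 1613 for miR-148a-3p in WT of the KO batch, KO and WT of the KI batch, and 1643, 1401, 1589 and 1425 for miR-148b-3p in the same groups and KI.

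The number of miRNAs called for KO minus KI, 0, became 21 with DESeq2, 25 with the replicate block, and 0 to 26 without 1 library (1 without WT replicate 1 of the KI batch, 26 without KI replicate 2). For the related list it became 1 with DESeq2 and with the block, and 0 to 1 without 1 library (1 without KI replicate 2). The 4 related miRNAs called in KO became 2 with no filter and 2 to 5 without 1 library (2 without WT replicate 3 or 4, or KO replicate 2, 3 or 4).

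Without 1 library these uncalled values changed sign: in KI, miR-126a-3p (-0.35 to 0.16), miR-130a-3p (-0.083 to 0.020) and miR-29b-3p (-0.019 to 0.13); in KO, miR-130a-3p (-0.16 to 0.019) and miR-342-3p (-0.14 to 0.017); between WT groups, miR-126a-3p (-0.19 to 0.29), miR-148b-5p (-0.049 to 0.20) and miR-301b-3p (-0.045 to 0.15); and in KO minus KI, miR-101b-3p (-0.13 to 0.054), miR-130a-3p (-0.22 to 0.034), miR-148a-5p (-0.13 to 0.45), miR-148b-5p (-0.039 to 0.19), miR-29a-3p (-0.20 to 0.020) and miR-301a-3p (-0.053 to 0.17).

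The replicate block changed no other call of a member; 2 of 5 KO and 3 of 6 KI libraries correlated best with the WT library of their own number. No-filter values of miR-152-3p in KO without 1 library (1.17 to 1.87) and with library totals (1.70, adjusted p = 0.0327) were added after seeing the data. Depth limits miR-152-3p and the 5p products, which had 0 to 26 counts a library.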
